A study of Mus musculus with 6 samples.

Results

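Densely clustered CTBP2 sites are sites that lie in a crowd of other CTBP2 sites. A site was counted as dense when the centres of 6 or more other sites lay within 25 kb of its own centre on the same chromosome. Of 61248 autosomal sites 17487 met this rule (28.6%). The table held 62236 sites in all, and the 988 on chromosomes X and Y were not considered. The rule used positions only and no signal value. The positions are those of the same set of sites for both groups, so they may themselves depend on LPS. Dense sites under 25 kb apart were joined, which gave 2246 clusters.

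CTBP2 is a co-repressor: it does not read DNA itself, but is brought to chromatin by DNA-binding proteins and in turn brings enzymes that remove or add histone marks. Lipopolysaccharide (LPS), a cell wall component of Gram-negative bacteria, is sensed by macrophages through TLR4, which switches on NF-kB, AP-1 and then interferon signalling. In macrophages, groups of closely spaced regulatory sites are known to lie around genes of cell identity and around genes of the inflammatory response. Setting LPS beside vehicle shows where CTBP2 lies on chromatin with and without this stimulus.

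The cells were macrophages grown for 6 days in medium conditioned by L929 cells from the marrow of wildtype male C57BL6/N mice aged 6 to 12 weeks. They received vehicle (PBS) or 100 ng/ml LPS for 3 h, with 3 libraries per group, and all 6 samples share the strain, the culture and the antibody. The chromatin was fixed with DSG and formaldehyde before CTBP2 was precipitated. No input library was analysed here. The labels number the replicates without saying that they are separate animals or cultures, so a p-value here reflects library-to-library spread, and that spread may be technical. Throughout, values of vehicle and of LPS stand in the order of replicates 1, 2 and 3.

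The libraries held 3243258 to 4553179 reads in the sites and a median of 40 to 57 reads per dense site, counting 1 step of each deposited column as 1 read. The deposited values are normalised signal per site, and their level differed between libraries of 1 group: the median over all sites was 35.5, 37.3 and 73.0 for vehicle and 37.1, 48.8 and 61.0 for LPS. Vehicle replicate 3 stood apart from the other vehicle libraries. Calls were therefore made on the deposited values and on median-centred values, in which every library is divided by its median site on the log2 scale. Counts and shares of called sites in clusters and genes are on median-centred values unless the deposited values are named. The second scale was chosen after the data were seen. Over dense sites, log2 values correlated at 0.907 to 0.943 within a group and at 0.695 to 0.795 between groups, a description across sites that share their libraries.

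The sequences of the sites themselves were not used here, since no genome of their build was at hand, and promoter sequences stand in for them. RefSeq promoters were available for 27025 genes. The placed start of 1291 of them lay within 500 bp of a dense site on the chromosomes searched, whose limit is given with the shares below. Shown here are the 250 bases before the start, on build GRCm38.p6 and written 5′ to 3′, for 4 genes whose dense site was higher in LPS and 2 whose dense site was lower. They are among the 6 higher and 4 lower genes with the smallest adjusted p on median-centred values, and were picked to show promoters with and without a motif. The 6 had to be called on both deposited and median-centred values, whereas for the 4 a median-centred call was enough. Capitals mark the letters of 5 motifs searched on both strands: the NF-kB consensus, AP-1 (TGANTCA), PU.1 (GAGGAAGT), the interferon-stimulated response element or ISRE (GAAA, any 2 bases, GAAA), and the E-box read by ZEB repressors (CACCTG). Matches of different motifs may overlap, but none of those printed do.
Lcn2 (chr2:32387740-32387989, minus strand): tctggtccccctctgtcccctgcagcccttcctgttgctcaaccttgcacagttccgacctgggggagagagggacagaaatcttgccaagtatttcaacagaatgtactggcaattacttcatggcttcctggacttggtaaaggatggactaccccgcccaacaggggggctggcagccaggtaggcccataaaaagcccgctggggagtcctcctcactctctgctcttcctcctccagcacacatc
Ifi205 (chr1:174031756-174032005, minus strand): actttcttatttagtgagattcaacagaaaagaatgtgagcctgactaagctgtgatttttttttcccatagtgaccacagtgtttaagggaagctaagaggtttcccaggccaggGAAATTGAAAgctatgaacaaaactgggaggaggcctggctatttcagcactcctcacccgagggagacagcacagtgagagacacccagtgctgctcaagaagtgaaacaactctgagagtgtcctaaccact
Slc7a7 (chr14:54417703-54417952, minus strand): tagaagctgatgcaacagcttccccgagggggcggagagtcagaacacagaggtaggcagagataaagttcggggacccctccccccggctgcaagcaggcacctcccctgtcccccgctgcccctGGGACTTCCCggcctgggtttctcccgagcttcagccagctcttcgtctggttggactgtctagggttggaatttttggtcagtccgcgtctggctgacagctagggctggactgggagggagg
Bcl2a1b (chr9:89199023-89199272, plus strand): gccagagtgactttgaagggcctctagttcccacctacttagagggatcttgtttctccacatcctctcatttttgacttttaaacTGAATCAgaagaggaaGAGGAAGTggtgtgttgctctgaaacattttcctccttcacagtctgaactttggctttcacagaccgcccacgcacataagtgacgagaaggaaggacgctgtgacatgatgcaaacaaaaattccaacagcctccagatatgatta
Gpnmb (chr6:49036268-49036517, plus strand): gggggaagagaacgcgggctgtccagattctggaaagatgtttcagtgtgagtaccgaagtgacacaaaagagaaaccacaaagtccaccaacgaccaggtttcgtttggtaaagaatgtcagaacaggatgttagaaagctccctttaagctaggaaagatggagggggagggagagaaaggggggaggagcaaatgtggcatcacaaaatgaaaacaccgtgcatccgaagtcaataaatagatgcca
Adcy7 (chr8:88293954-88294203, plus strand): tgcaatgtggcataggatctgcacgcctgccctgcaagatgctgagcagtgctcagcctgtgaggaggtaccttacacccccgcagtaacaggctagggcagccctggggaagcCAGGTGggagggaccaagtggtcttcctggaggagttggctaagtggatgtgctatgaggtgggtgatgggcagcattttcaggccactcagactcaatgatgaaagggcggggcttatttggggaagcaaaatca

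Lcn2 encodes lipocalin 2, which withholds iron from bacteria. None of the 5 motifs was in its window, which says only that these letters are not there. Ifi205 belongs to the interferon-inducible Ifi200 family of DNA sensors and held an ISRE. Slc7a7, an amino acid transporter gene, held an NF-kB consensus. Bcl2a1b encodes a survival protein of the BCL2 family and held both an AP-1 and a PU.1 match. Ifi205 and Bcl2a1b have near-identical neighbouring copies, so reads there may be split between copies. Gpnmb, a glycoprotein gene of lysosome-rich macrophages, had no match, and Adcy7, an adenylate cyclase gene, held the E-box.

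These 6 sites were picked by their calls, so their values illustrate the calls and are no separate support for them. At the Lcn2 start the value was 11.3, 13.6 and 13.1 in vehicle against 92.3, 138 and 117 in LPS. The groups did not overlap, and the log2 fold was 3.08 (± 0.45 SE, adjusted p = 5.12e-08 by limma) on deposited and 3.02 (± 0.23 SE, adjusted p = 4.95e-11 by limma) on median-centred values. Ifi205 had 32.9, 23.7 and 44.9 in vehicle against 100.1, 107 and 202 in LPS, a log2 fold of 1.95. Slc7a7 had 21.7, 24.4 and 43.1 against 71.6, 96.8 and 120 (log2 fold 1.69), and Bcl2a1b had 71.0, 76.7 and 148 against 177, 254 and 406 (log2 fold 1.49). In each of these genes every LPS library was above every vehicle library, and limma's adjusted p on deposited values was 0.00407, 0.0175 and 0.0435. The Lcn2 call held without each library in turn. The other 3 were lost on leaving out vehicle 1, vehicle 2, LPS 2 or LPS 3, and Bcl2a1b also without LPS replicate 1, with adjusted p up to 0.308, 0.420 and 0.829 by limma. On median-centred values all 4 calls held without each library. Gpnmb had 102, 116 and 307 in vehicle and 66.4, 85.3 and 71.5 in LPS. Adcy7 had 65.8, 88.2 and 165 in vehicle and 37.96, 60.4 and 57.5 in LPS. In both genes every LPS library was below every vehicle library. Their log2 folds of -1.11 and -1.002 passed the test on median-centred values (limma adjusted p = 1.21e-05 and 2.48e-05) but not on deposited values (0.355 and 0.482).

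Among the 1291 promoters near a dense site, 193 (14.9%) had a site called higher and 86 (6.66%) a site called lower at a limma adjusted p under 0.05 on median-centred values. The 359 dense sites on chromosome 18 were not matched to promoters, so these promoter counts and the shares below do not cover them. The set of 27025 promoters was not limited in this way. The shares called among all sites, chromosome 18 included, were 16.1% higher and 13.4% lower. Of the 193, 15.5% held the NF-kB consensus and 11.4% the ISRE, against 7.07% and 3.06% of all 27025 promoters of the same length and 10.6% and 2.77% of the 1012 promoters whose dense site was not called. Of the 86, 11 (12.8%) held the AP-1 letters and 8 (9.30%) the PU.1 letters, against 6.87% and 2.46% of all promoters and 4.64% and 3.36% of the 1012. The 193 had 7.77% with the AP-1 letters and 5.18% with the PU.1 letters. The NF-kB consensus was in 9.30% of the 86 and the ISRE in 2.33%. The ZEB E-box was in 16.1% of the 193, 19.8% of the 86 and 17.1% of all promoters. Base composition differed as well, with a median GC content of 58.4% and 56.8% in the higher and lower groups, 60.4% in the 1012 and 52.0% in all promoters. These shares are descriptions, and a match is not a binding site. On deposited values 10 of the promoters had a higher site (0.775%, against 1.89% of all sites) and none a lower one (against 0.0482%).

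Dense sites were 1001 bp wide in 17384 cases and at most 2944 bp. The most crowded site had 17 others within 25 kb. Neighbouring centres in a cluster lay a median of 4.13 kb apart. Clusters held a median of 7 sites over 28.3 kb and at most 93 sites over 492 kb. There were 341 clusters of 1 site, whose crowding neighbours were not dense themselves, and 1412 clusters of 5 or more sites, which held 89.8% of the dense sites. The share of sites that were dense was highest on chromosome 11 (35.3%), 15 (32.4%) and 2 (32.0%) and lowest on chromosomes 18 (20.5%) and 13 (21.2%).

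Site positions are read as GRCm39, one of the builds in the submitters' processing notes, while the available gene table is GRCm38.p6. Genes were therefore placed by an offset measured in the data, with no conversion, and the distances below are to starts placed in this way. Of the dense sites whose nearest gene has a known strand, 10.97% lay within 1 kb of a placed start, against 19.8% of the other autosomal sites. Dense sites at starts had a median level of 1.87 times the library's median site in vehicle and 2.03 times in LPS, while dense sites farther away had 0.929 and 0.962 times. Of the dense sites at starts, 16.2% were called higher and 6.81% lower on median-centred values, against 19.7% and 14.2% of those farther away. On deposited values 1.01% of those at starts and 2.37% of those farther away were higher. So most dense sites were not at gene starts, and those that were had more signal and, on median-centred values, fewer higher and fewer lower calls. The other autosomal sites showed the same pattern. Their level in vehicle was 1.65 times at starts and 0.894 times farther away. At starts 7.94% of them were called higher and 4.52% lower on median-centred values, against 16.5% and 15.8% farther away.

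On deposited values 394 dense sites were higher in LPS (2.25%, against 1.89% of all sites) and 7 were lower (0.0400%, against 0.0482% of all sites). Without vehicle replicate 3 these counts were 3429 and 56. On median-centred values 3370 dense sites were higher (19.3%, against 16.1% of all sites) and 2305 lower (13.2%, against 13.4% of all sites), and without vehicle replicate 3 they were 3431 and 2046. Of the 394 higher sites 393 were also higher after centring, and all 7 lower sites were also lower. By the FDR in the authors' deposited table, 762 dense sites were higher (4.36%, against 4.01% of all sites) and 62 lower (0.355%, against 0.37% of all sites). The share of higher dense sites was above that of all sites on median-centred values, and only slightly above it on deposited values and by the authors' FDR. The share of lower ones was close to that of all sites throughout. All sites include the dense ones, and these differences were not tested. The median log2 fold was 0.07 over dense and 0.03 over the other autosomal sites on deposited values, and 0.01 and -0.03 on median-centred values.

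Dense sites took a slightly larger part of the signal in LPS. Of all autosomal site signal, dense sites held 29.8%, 30.0% and 30.0% in vehicle and 30.5%, 30.5% and 31.1% in LPS. The groups did not overlap, with 29.9 ± 0.146% (SD, n = 3) against 30.7 ± 0.343% (SD, n = 3) and an exact two-sided permutation p = 0.1, the smallest that 3 libraries against 3 can give. The difference was of the same size without the site of highest mean value and the chromosome 9 cluster described below, at 29.9% against 30.8% (exact permutation p = 0.1). The median of dense minus other sites on the log2 scale was -0.03, 0.00 and 0.07 in vehicle and 0.03, 0.08 and 0.14 in LPS. Here the groups overlapped, and the difference of 0.07 had an exact permutation p = 0.2 (n = 3 per group). Dense sites were counted over the sites of both groups, and the part of sites seen mainly in LPS was not tested.

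**Figure D1:**
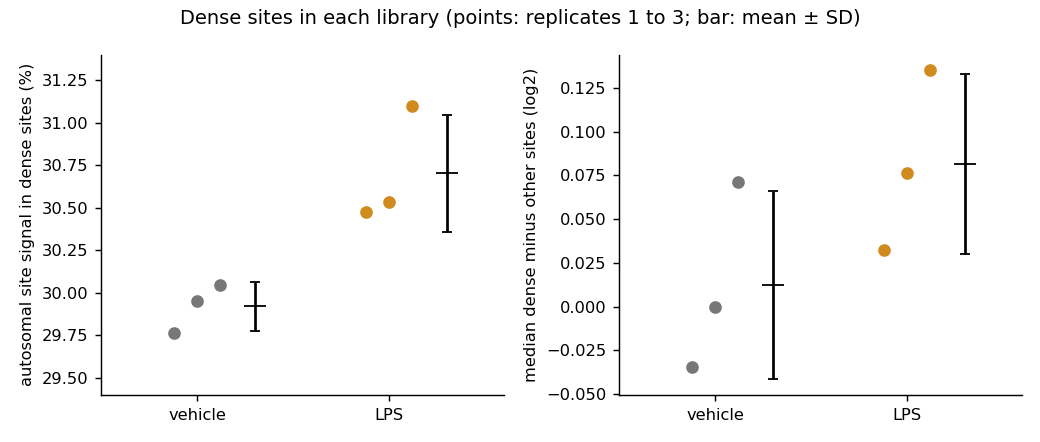
The left panel plots the share of autosomal site signal in dense sites (%) and the right panel the median log2 value of dense minus other sites, with 1 point per library and the mean ± SD of each group. In the left panel all LPS libraries lie above all vehicle libraries, and in the right panel the groups overlap.

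On median-centred values, more crowded sites were more often higher in LPS. There 12.1% of the 5049 autosomal sites with no other centre within 25 kb were higher, 16.7% of the 6954 with 5 others and 18.0% of the 5767 with 6 others, which are the sites just outside and just inside the rule. The share was 21.5% of 3747 sites with 9 to 11 others and 28.2% of 522 sites with 12 to 17 others. The lower share was 13.6% with no other centre, 13.8% with 6 others, 12.5% with 9 to 11 and 9.96% with 12 to 17. It thus fell mainly among the most crowded sites. Restricted to sites over 1 kb from a placed start, the higher share still went from 14.4% to 28.0% and the lower share from 17.2% to 9.92%. Leaving out each library in turn, the higher share was between 8.60% and 11.3% with no other centre and between 18.4% and 27.8% with 12 to 17, the lowest without LPS replicate 3. On deposited values the share was 1.25% with no other centre and 2.30% with 5, 2.15% with 6, 2.21% with 7 to 8, 2.48% with 9 to 11 and 2.30% with 12 to 17. Crowding was counted over the sites of both groups, so a site seen mainly in LPS also counts as a neighbour. The part of such sites in this trend was not tested.

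The 522 most crowded sites also had less signal in vehicle, at a median of 0.719 times the library's median site, and 0.911 times in LPS. Sites just inside the rule had 1.02 times in vehicle and 1.04 times in LPS, and those just outside 1.02 and 1.02. The 522 sites came from 112 clusters. The cluster that held the most of them, 22, lay at chr2:90288772-90420457 near Ptprj, a receptor tyrosine phosphatase gene. Without it 26.8% of the rest were higher and 10.4% lower.

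**Figure D2:**
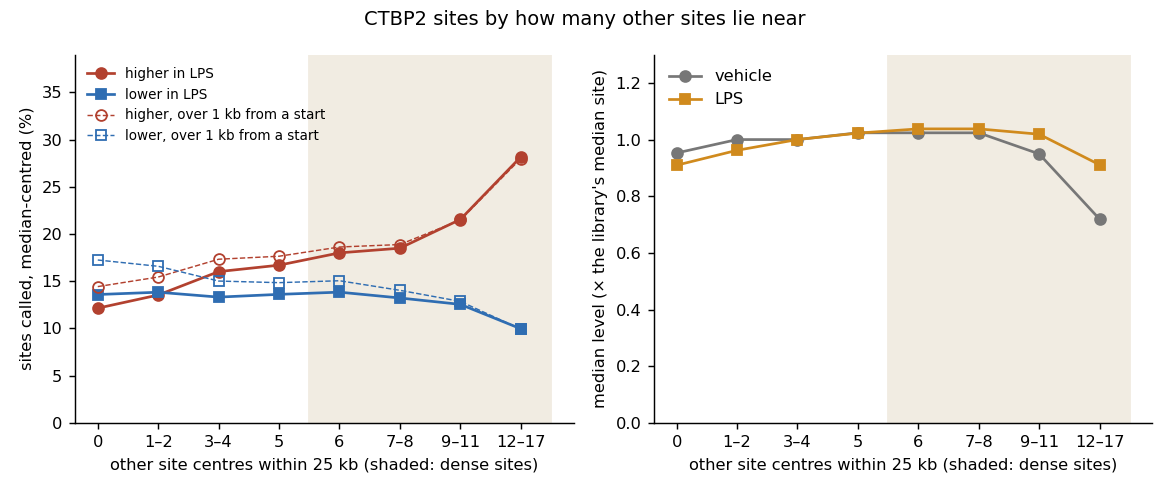
Sites are binned by the number of other site centres within 25 kb, with dense sites shaded; the left panel gives the percent of sites called in LPS on median-centred values, for all sites (filled) and for sites over 1 kb from a placed start (open), and the right panel the median level in multiples of the library's median site. The higher share reaches 28.2% in the most crowded bin, where the vehicle level is 0.719.

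A cluster's sites were next averaged on the log2 scale and fitted as 1 value per cluster. On deposited values limma called 4 clusters higher (0.178% of the 2246) and none lower, against 104 higher and 7 lower at an unadjusted p under 0.05. In total, about this many of 2246 clusters would be expected to pass the unadjusted threshold with no change in any. Without vehicle replicate 3 the counts after adjustment were 314 and 2. On median-centred values 593 clusters were higher (26.4%) and 432 lower (19.2%), and without vehicle replicate 3 601 and 371. Of the 1412 clusters with 5 or more sites 391 were higher and 279 lower.

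**Figure D3:**
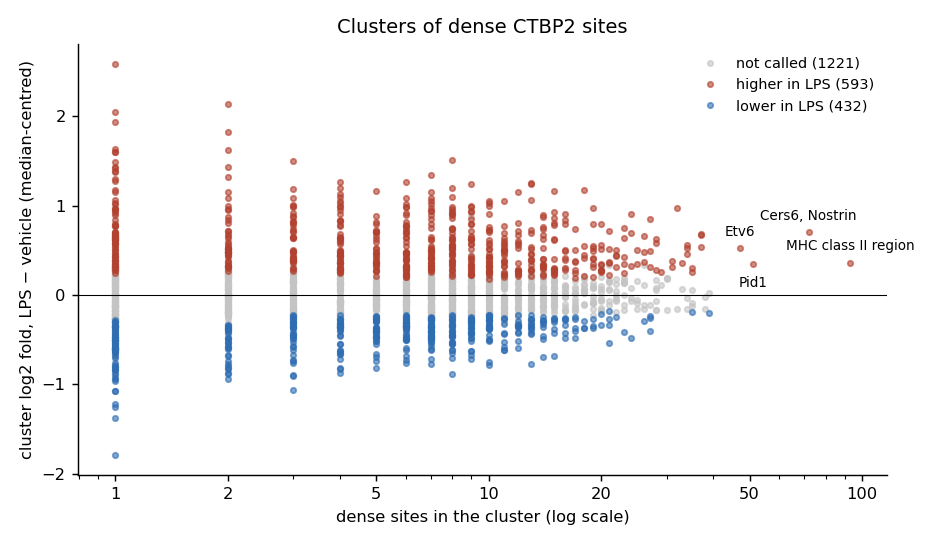
Each point is 1 cluster, with its number of dense sites on a log axis and its log2 fold, LPS minus vehicle, on median-centred values; colours give limma calls (593 higher, 432 lower, 1221 not called). Clusters of few sites span the widest folds, and the 4 largest clusters are all higher.

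The 6 clusters with the most sites were of different kinds. The largest, 93 sites at chr17:34115768-34607887, held the placed starts of the MHC class II genes H2-Aa, H2-Ab1 and H2-Eb1, which present peptides to helper T cells, and of the antigen processing genes Tap1, Tap2, Psmb8 and Psmb9. Relative to the library's median site its mean level was 0.950, 0.952 and 1.07 in vehicle and 1.17, 1.26 and 1.38 in LPS. The groups did not overlap, and the log2 fold was 0.36 (± 0.09 SE, adjusted p = 0.00674 by limma) with 26 sites higher and 5 lower. Genes of this region have near-identical copies, so reads may be split between copies. The second, 72 sites at chr2:68626120-68966631, spanned Cers6, which makes ceramides, and Nostrin. Its level was 0.581, 0.616 and 0.522 times in vehicle and 0.819, 0.879 and 1.11 times in LPS, for a log2 fold of 0.70 (± 0.15 SE, adjusted p = 0.00375 by limma), and 43 of the 72 sites were higher and 2 lower.

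The other four large clusters lay at Pid1, Etv6, Itpkb and Psen2, and Ccr1 and Ccr3. At Pid1 (51 sites) the log2 fold was 0.35 (± 0.12 SE, adjusted p = 0.0388 by limma), and the call was lost on leaving out any of the 6 libraries (adjusted p up to 0.101 by limma). At Etv6, a transcription factor gene of blood cells (47 sites), the level rose from 0.843, 0.908 and 0.872 to 1.18, 1.25 and 1.33 times, with a log2 fold of 0.52 (± 0.08 SE, adjusted p = 0.00046 by limma), 23 sites higher and none lower. The cluster of Psen2 and Itpkb (39 sites) had 5 higher and 5 lower sites, a log2 fold of 0.02 and limma adjusted p = 0.833. The cluster of the chemokine receptor genes Ccr1 and Ccr3 (39 sites) was lower, with a log2 fold of -0.20 (± 0.07 SE, adjusted p = 0.0419 by limma) and 11 lower against 2 higher sites. Its call held only without LPS replicate 3 and was lost without each of the other libraries (adjusted p up to 0.153 by limma). None of these 6 clusters passed the test on deposited values, where the fold of the Ccr1 cluster was 0.20 without vehicle replicate 3 and -0.14 with all libraries.

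The 4 clusters that passed on deposited values were small. A lone dense site at chr7:46373116-46374116, 4.50 kb from the placed start of the acute phase gene Saa3, had values of 18.2, 18.3 and 37.4 in vehicle and 127, 166 and 164 in LPS. The groups did not overlap, and as a cluster its log2 fold was 2.65 (± 0.47 SE, adjusted p = 3.33e-05 by limma). A pair of sites inside Atp8a1, a lipid flippase gene, at chr5:67783482-67791772 had a log2 fold of 2.20 (± 0.49 SE, adjusted p = 0.00838 by limma), and its stronger site went from 8.66, 16.3 and 22.5 to 99.2, 122 and 170.0. A lone site at chr6:129243256-129244256, 8.62 kb from Cd69, an early activation antigen of leukocytes, had 12.1, 12.9 and 20.6 in vehicle and 30.2, 71.0 and 141 in LPS (log2 fold 2.11, limma adjusted p = 0.0118). The last, at chr15:6714107-6715107 and 23.0 kb from Rictor, a subunit gene of the TORC2 kinase, had 7.80, 14.2 and 28.1 against 43.1, 65.7 and 83.2 (log2 fold 2.00, limma adjusted p = 0.0285). In all 4 every LPS library was above every vehicle library. The Saa3 call was lost without LPS replicate 2 (adjusted p = 0.0932 by limma), and the other 3 calls on leaving out vehicle 1, vehicle 2, LPS 2 or LPS 3. On median-centred values all 4 held without each library in turn.

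On median-centred values the 10 higher clusters with the smallest adjusted p included those near Csf2, Il1a, Nod2 and Ccr7. The Csf2 cluster, named for the cytokine GM-CSF (8 sites, chr11:54092300-54148492), had levels of 0.907, 0.876 and 0.881 times in vehicle and 1.80, 1.93 and 1.98 times in LPS. Its log2 fold was 1.10 (± 0.07 SE, adjusted p = 6.46e-06 by limma), and 6 of its 8 sites were higher. The Il1a cluster (9 sites, chr2:129147682-129180988), at the gene of interleukin 1 alpha, went from 0.940, 0.973 and 0.963 to 1.86, 1.85 and 1.97 times, with 8 of 9 sites higher. At Nod2, a sensor of bacterial cell walls (2 sites, chr8:89364429-89377544), the level went from 1.26, 1.13 and 1.36 to 3.74, 3.94 and 3.82 times. Near Ccr7, 9.99 kb from the placed start of this lymph node homing receptor (6 sites, chr11:99055317-99080636), it went from 0.735, 0.816 and 0.775 to 1.64, 1.66 and 1.64 times. The groups were far apart in all of these, with SEs of at most 0.10 against log2 folds of 0.98 to 1.62.

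The other clusters of the same ranking were the Saa3 site, a cluster at Arhgef3, 1 inside Ppm1h, 1 at 41.8 kb from Jak2, a lone site inside Trerf1, and 3 sites at chr5:30059109-30070014 with no placed start within 100 kb. Ppm1h encodes a phosphatase, Jak2 a kinase of cytokine receptors and Trerf1 a transcriptional regulator. Their log2 folds lay between 1.00 and 2.59. On deposited values only the Saa3 site among these 10 passed, and the adjusted p of the other 9 lay between 0.069 and 0.858.

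Among the 10 lower clusters with the smallest adjusted p, the Atp6v0d2 cluster, at a subunit gene of the lysosomal proton pump (10 sites, chr4:19867339-19921348), went from 1.15, 1.27 and 1.28 times the library's median site in vehicle to 0.788, 0.719 and 0.699 times in LPS. Its log2 fold was -0.75 (± 0.09 SE, adjusted p = 0.000109 by limma), and 7 of its 10 sites were lower and none higher. The Slc37a2 cluster, at a sugar phosphate transporter gene (10 sites, chr9:37139055-37175913), went from 1.24, 1.28 and 1.40 to 0.817, 0.762 and 0.696 times, with 8 of 10 sites lower. At Cerk, the ceramide kinase gene (9 sites), the log2 fold was -0.72. The strongest fall was at a lone dense site 13.3 kb from Trmt61a, a tRNA methyltransferase gene (chr12:111657408-111658408), with 76.2, 76.7 and 185 in vehicle and 24.2, 33.7 and 34.0 in LPS (log2 fold -1.79). Also among the 10 were a lone site near Tpra1, 8 sites inside Zdhhc14, 2 sites inside Ttyh3, 4 sites inside Arhgap39 and a lone site near Galnt12, with log2 folds of -1.25 to -0.81. None of the 10 passed as a cluster on deposited values, where their smallest adjusted p was 0.069.

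The 7 dense sites that were lower on deposited values were singled out after their values were seen. In all of them every LPS library was below every vehicle library. Besides the Trmt61a site they included 1 inside both Vsir, the gene of the immune checkpoint VISTA, and Cdh23 (chr10:60197748-60198748), with 63.2, 84.1 and 150 in vehicle and 19.8, 26.6 and 39.9 in LPS. Its log2 fold was -1.71 (± 0.46 SE, adjusted p = 0.0154 by limma). Another was inside Itgb5, an integrin gene (chr16:33737470-33738470), with 58.0, 58.3 and 109 against 18.1, 18.7 and 27.0 (log2 fold -1.73, limma adjusted p = 0.0121). The others lay inside Tbc1d1, at Mfsd12 and Fzr1, and near Acot13 and Vcl. Each of these calls was lost without at least 4 of the 6 libraries, the Vsir call with adjusted p up to 0.445, while on median-centred values all 7 held without each library (limma).

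Sites of a cluster did not all move together. On median-centred values 510 clusters held both higher and lower sites, 663 higher sites only, 540 lower sites only and 533 no called site. Of the 1412 clusters of 5 or more sites, 91 had a positive log2 fold at every site and 81 a negative one, and the median range between a cluster's highest and lowest site was 1.35 on the log2 scale. Clusters of 5 or more sites nevertheless took up 37.8% of the variance of the log2 fold over their sites, against 12.7% of the variance of the level. With 1412 clusters over 15701 sites, part of each share would arise under any grouping, and neither share was tested. Neighbouring dense sites 1 to 2 kb apart had log2 folds that correlated at 0.467 (1926 pairs), and those 10 to 25 kb apart at 0.321 (1727 pairs). The correlation of their levels lay between -0.0198 and 0.0471. Of 7278 pairs 2 to 5 kb apart, both sites were higher in 605, both lower in 272 and called in opposite directions in 102. These are descriptions over pairs that share libraries.

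In 4 of the clusters with 5 or more sites every site was higher, and in 1 every site was lower; they are named here after their values were seen. The Il12a cluster, at the gene of the p35 subunit of interleukin 12 (8 sites, chr3:68531750-68599165), had levels of 0.470, 0.433 and 0.366 times in vehicle and 1.20, 1.17 and 1.22 times in LPS. Its log2 fold was 1.51 (± 0.14 SE, adjusted p = 3.98e-05 by limma), with sites between 0.65 and 2.64. A cluster 14.4 kb from Il1b, the gene of interleukin 1 beta (6 sites, chr2:129227023-129252964), went from 0.571, 0.507 and 0.548 to 1.31, 1.28 and 1.32 times, a log2 fold of 1.27. The other two were the Ppm1h cluster (sites between 0.69 and 2.54) and that near Jak2 (sites between 0.76 and 2.48). The uniformly lower cluster lay inside 2900026A02Rik (6 sites, log2 fold -0.73). None of the 5 passed as a cluster on deposited values.

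In the 4 clusters with the widest range, 1 or 2 sites stood far above the rest. The Acod1 cluster (16 sites, chr14:103250847-103340406) is named for the enzyme that makes itaconate. Its top site, at chr14:103291074-103292074 inside Acod1, had values of 11.3, 10.2 and 26.2 in vehicle and 263, 454 and 980.1 in LPS. No other dense site had as large a log2 fold, which was 4.98 (± 0.47 SE, adjusted p = 6.13e-22 by limma) on deposited values. On median-centred values the cluster as a whole had a log2 fold of 0.84 (± 0.11 SE, adjusted p = 0.000206 by limma), with 8 of 16 sites higher. On deposited values it did not pass (log2 fold 0.91, limma adjusted p = 0.9999), and 3 of its sites were higher.

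The Tnf cluster (21 sites, chr17:35383288-35478503) holds the placed starts of the cytokine genes Tnf, Lta and Ltb and of 6 other genes, from Prrc2a to Ddx39b. Its top site lay inside Tnf, at chr17:35418184-35419184, with 39.8, 44.1 and 170 in vehicle and 659, 873 and 1250 in LPS, a log2 fold of 3.72 (± 0.42 SE, adjusted p = 4.19e-15 by limma). At the other end a site 3.71 kb from Prrc2a had a log2 fold of -0.71 on median-centred values (limma adjusted p = 0.0204), a call lost on leaving out vehicle 1, vehicle 3, LPS 1 or LPS 2 (adjusted p up to 0.130 by limma). Of the 21 sites 5 were higher and 2 lower, and the cluster as a whole did not pass (log2 fold 0.33, limma adjusted p = 0.0627 on median-centred values).

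The Lcn2 cluster (12 sites, chr2:32252905-32342977) had the Lcn2 start shown above as its top site. Its lowest site, inside Slc25a25, had 35.5, 35.3 and 88.0 against 19.0, 31.1 and 38.7 and a log2 fold of -0.80 on median-centred values (limma adjusted p = 0.00307). With 4 higher and 3 lower sites its cluster log2 fold was 0.24 on median-centred values (± 0.08 SE, adjusted p = 0.0337 by limma), a call lost without any 1 of vehicle replicates 1 and 2 and LPS replicates 2 and 3 (adjusted p up to 0.145 by limma). The chemokine cluster (37 sites, chr11:83440847-83645101) ran from Ccl9 and Ccl6 over Ccl3 and Ccl4 to Heatr6. Its top site touched Ccl4 at chr11:83555262-83556262, with 72.8, 59.0 and 183 in vehicle and 510, 916 and 1576 in LPS (log2 fold 3.27 ± 0.40 SE, limma adjusted p = 5.20e-12). A site inside Ccl3 had a log2 fold of 2.53, while a site 26.6 kb from the Ccl3 start fell by 0.59 on the log2 scale (limma adjusted p = 0.00334 on median-centred values, and 0.0595 without LPS replicate 2). On median-centred values the cluster held 17 higher sites and 1 lower, and its log2 fold was 0.54 (± 0.10 SE, adjusted p = 0.00164 by limma). On deposited values 4 of its sites were higher and none lower, and neither it nor the Lcn2 or Tnf cluster passed as a whole (limma adjusted p = 0.9999 for each).

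**Figure D4:**
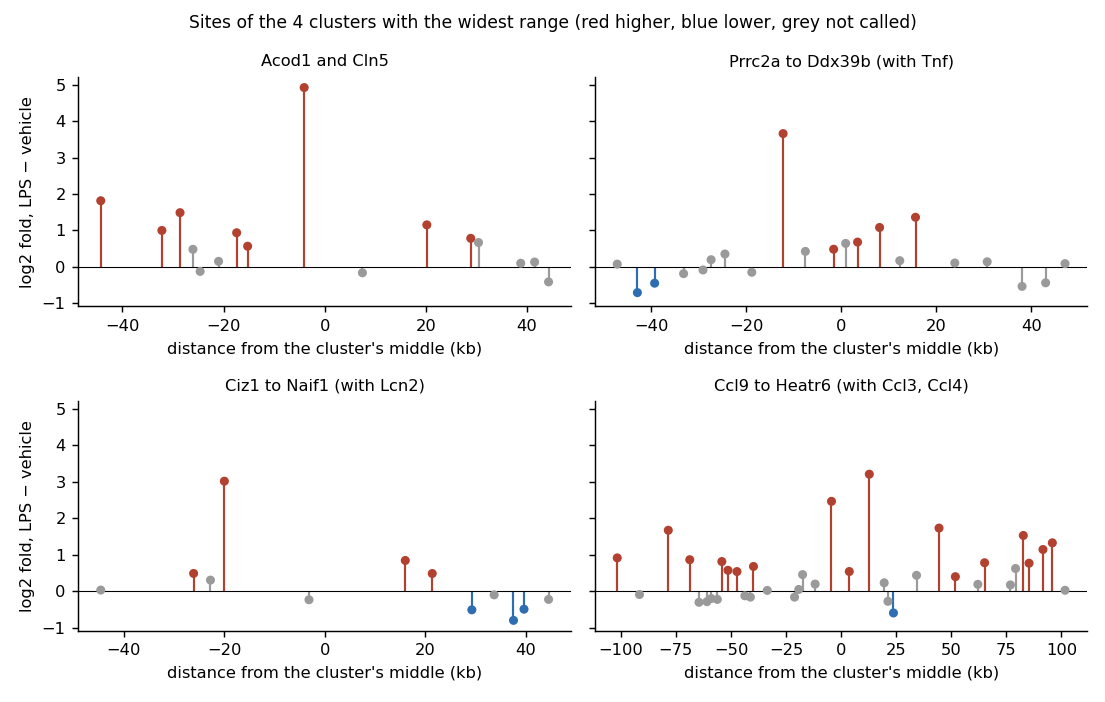
Each stem is 1 dense site, placed by its distance from the cluster's middle in kb, with its log2 fold, LPS minus vehicle, on median-centred values; red is higher, blue lower and grey not called. The Acod1 site reaches 4.92 and the Tnf site 3.66, while other sites of the same clusters lie near 0 or below it.

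Dense sites were grouped by their nearest placed gene start. Of 14032 genes nearest to an autosomal site, 25.9% were nearest to a dense one. The inflammatory mediator list (cytokines, chemokines and enzymes of the response) had 30 of 38 genes with a dense site. At 183 dense sites, 64.5% were higher and 1.64% lower on median-centred values, with a median log2 fold of 0.84, against 19.3%, 13.2% and 0.01 over all dense sites. On deposited values 28 of the 183 were higher, against 2.25% of all dense sites and 1.89% of all sites. All 30 genes had at least 1 higher dense site, and 2 had a lower one. Of all 3628 genes with a dense site, 1459 had a higher and 1219 a lower one. A gene with more dense sites has more chances of a call. Leaving out each library in turn, the higher share of the 183 sites was 54.1% to 63.4%. Their lower share was 1.09% to 2.73%, the highest without vehicle replicate 1.

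For each list, the genes with the most dense sites are described, and a gene's strongest site is the one with its smallest adjusted p. Counts on deposited values for lists and genes stand against 1.89% higher and 0.0482% lower of all sites. With so low a share of lower sites, none lower in a list says little about it. Ptges, the prostaglandin E synthase gene, had 14 dense sites, 12 of them higher and none lower. Its strongest, at chr2:30802854-30803854, had 17.3, 15.6 and 46.8 in vehicle and 134, 190.0 and 231 in LPS, so the groups were apart (log2 fold 2.89 ± 0.47 SE, limma adjusted p = 1.06e-06). Csf1, the macrophage growth factor gene, had 15 dense sites, 8 higher and none lower. Il10, the gene of an anti-inflammatory cytokine, had 14, of which 7 were higher, and its strongest went from 13.0, 16.96 and 31.8 to 41.4, 70.2 and 101 (log2 fold 1.74, limma adjusted p = 0.0124). That call was lost on leaving out vehicle 1, vehicle 2, LPS 2 or LPS 3 (adjusted p up to 0.543 by limma), but not on median-centred values. Edn1, the endothelin 1 gene, had 10, of which 8 were higher.

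The NF-kB list had 17 of 27 genes with dense sites, and of 153 sites 54.9% were higher and 1.96% lower (median log2 fold 0.60; 17 higher on deposited values). Tnfaip3, which encodes the feedback inhibitor A20, had 22 dense sites, 19 of them higher and none lower. Its strongest, 62.6 kb from the placed start, had 26.9, 36.6 and 74.9 in vehicle and 177, 215 and 258 in LPS (log2 fold 2.32 ± 0.47 SE, limma adjusted p = 0.00025), and its adjusted p was 0.0742 without LPS replicate 2. Nfkb1, the p50 subunit gene, had 12 of 28 sites higher and 1 lower, and Nfkbiz, which encodes the nuclear inhibitor IκBζ, 12 of 21 higher and 1 lower. Ikbke, a kinase gene, had 6 of 17 higher and none lower. Feedback regulators had 39.1% higher and 7.25% lower of 138 sites (median log2 fold 0.33), and 6 higher and none lower on deposited values. Without each library in turn the higher share was 26.1% to 35.5%, and the lower share 3.62% to 6.52%, which moved by over 1.5 times without LPS replicate 2 or 3. Among them Cebpb, a transcription factor gene, had 8 of 18 sites higher and none lower, while Ptpn1, a phosphatase gene, had 7 higher and 3 lower of 21. The interferon list had 35.7% higher and 6.09% lower of 115 sites (median 0.30). On deposited values 3 of the 115 were higher and none lower, against 1.89% and 0.0482% of all sites. On median-centred values the higher share was 24.3% to 34.8% and the lower share 2.61% to 6.09% without each library. The lower share moved by over 1.5 times without vehicle replicate 1 or LPS replicate 2 or 3. Ifih1, which senses viral RNA, had 6 of 10 higher and none lower, whereas Irf2, which can repress interferon genes, had 1 higher and 3 lower of 19.

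Immediate early and AP-1 genes were mixed, with 25.2% higher and 21.6% lower of 139 sites and a median log2 fold of 0.03. On deposited values 4 of them were higher and none lower. Batf, an AP-1 family gene, had 6 of 12 dense sites higher and none lower, and 1 site 20.0 kb from its start went from 9.53, 13.6 and 18.7 to 91.4, 116 and 134 (log2 fold 2.97 ± 0.45 SE, limma adjusted p = 1.73e-07). Ier5 had 3 higher and 6 lower sites of 15, with log2 folds from -0.91 to 2.25, and Fos had 4 higher and 2 lower of 15. Atf3, a stress response factor gene, had 2 higher and 2 lower of 14. Its strongest site had 90.1, 92.9 and 213 in vehicle and 50.0, 64.8 and 82.1 in LPS, a log2 fold of -0.97 on median-centred values (limma adjusted p = 9.82e-06, and 0.522 on deposited values).

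Of the lists, macrophage identity genes had the highest share of genes with a dense site, 30 of 34, though binding does not measure expression. Of their 268 dense sites 19.0% were higher and 16.4% lower (median -0.01), close to the shares over all dense sites. On deposited values 3 of the 268 were higher and none lower, against 1.89% and 0.0482% of all sites. Runx1 had 30 dense sites, none higher and 5 lower, and Fli1 18, none higher and 4 lower; both encode transcription factors of blood cells. The strongest Runx1 site had 208, 231 and 365 in vehicle and 119, 152 and 171 in LPS (log2 fold -0.89 on median-centred values, limma adjusted p = 2.87e-06, and 0.522 on deposited values). Cd44, an adhesion receptor gene, had 13 of 28 higher and none lower, and Etv6 19 of 38 higher and none lower. So genes of 1 list differed in direction.

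Lipid metabolism genes had 14.3% higher and 20.8% lower of 77 sites, with a median log2 fold of -0.25, and 1 higher and none lower on deposited values. Without each library in turn the lower share was 14.3% to 19.5% and the higher share 6.49% to 11.7%, under the value with all libraries in every case and by over 1.5 times without vehicle replicate 2 or LPS replicate 2 or 3. Pparg, the gene of a lipid-sensing nuclear receptor, had 6 lower and no higher sites of 20. Its strongest had 111, 109 and 251 in vehicle and 60.4, 91.5 and 107 in LPS (log2 fold -0.84 on median-centred values, limma adjusted p = 3.45e-05, and 0.654 on deposited values). Plin2, a lipid droplet coat gene, had 2 lower of 8 and Abcg1, a cholesterol exporter gene, 2 lower of 9, with none higher in either. Acsl1, which activates fatty acids, had 7 of 11 higher and none lower.

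Genes of the CTBP complex and its recruiting factors had 20.7% higher and 11.6% lower of 121 sites (median 0.13). These shares were close to the 19.3% and 13.2% over all dense sites. On deposited values 2 of the 121 were higher and none lower, against 1.89% and 0.0482% of all sites. On median-centred values the lower share was 6.61% to 11.6% without each library, with moves over 1.5 times on dropping vehicle 1, vehicle 2, LPS 2 or LPS 3. Ikzf1, the Ikaros gene, had 5 of 17 higher and none lower, with a strongest site of 25.1, 15.6 and 41.2 in vehicle and 87.1, 111 and 135 in LPS (log2 fold 2.07, limma adjusted p = 0.00147). That call was lost on leaving out vehicle 2, LPS 2 or LPS 3 (adjusted p up to 0.239 by limma), but not on median-centred values. Zeb2, which encodes a repressor that binds CTBP, had 4 higher and 1 lower of 23, and Zfp217 2 higher and 3 lower of 17. Of markers of other cells, 4 of 12 measured neutrophil genes (33.3%) had 13 dense sites, 2 of 13 lymphocyte genes (15.4%) had 2, and 2 of 11 erythroid or stromal genes (18.2%) had 4, against 25.9% of all genes. Among them Mmp9, which activated macrophages also express, had 6 dense sites, 1 of them higher, and that site went from 27.7, 27.1 and 63.6 to 135, 151 and 166. Mmp8, on the same neutrophil list, had 4 dense sites, 2 of them higher. Of the 13 neutrophil sites 23.1% were higher and none lower, against 19.3% and 13.2% over all dense sites. The part of other cells in these results was not tested.

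**Figure D5:**
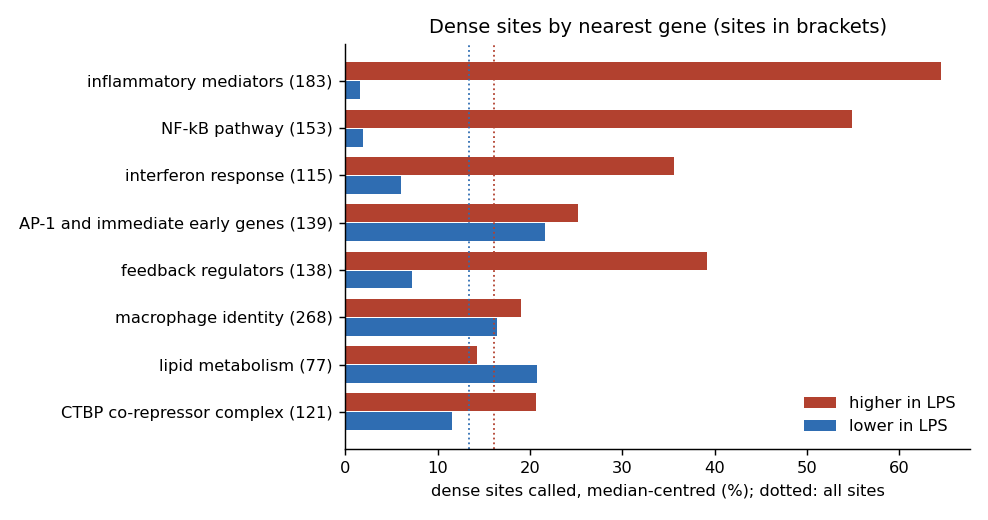
Bars give the percent of dense sites called higher (red) or lower (blue) in LPS on median-centred values, by the list of the nearest gene, with the number of sites in brackets; dotted lines mark the shares over all sites, 16.1% and 13.4%. Higher sites make up 64.5% for inflammatory mediators and 14.3% for lipid metabolism, where 20.8% are lower.

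Some genes gathered many dense sites whatever their list. Pid1, which encodes an adaptor protein, was nearest to 51, Etv6, Cers6 and Tns3 to 38 each, Klf7 and Cyrib to 36 each, and Nostrin and Ptprj to 34 each. Klf7, a transcription factor gene, had 24 higher and no lower sites and a median log2 fold of 0.72. Cers6 had 28 higher and none lower (median 0.77), and Ptprj 17 higher and none lower (median 0.59). On deposited values 4, 2 and 2 sites of these 3 genes were higher. Tns3, a focal adhesion gene, had 6 higher and 6 lower, and Cyrib, a Rac regulator gene, 8 higher and 4 lower with folds from -0.82 to 2.72.

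A cluster of 12 dense sites near the start of chromosome 9 had very high signal and is named here after its values were seen. The median value of its sites was 1303, 1092 and 946 in vehicle and 1264, 944 and 767 in LPS, and the groups overlapped. In LPS replicate 3 the top sites at Ccl4 and Tnf, at 1576 and 1250, lay above that median. The cluster took 1.42% to 3.39% of the signal of all dense sites in a library. As no input library was analysed, whether this signal is CTBP2 binding or background was not tested.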

How the data were processed

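CTBP2 was measured by ChIP-seq in cultured mouse macrophages, with 3 libraries from vehicle and 3 from LPS, grouped by the labels. The deposited table gives, per site, a normalised signal value in each library, scaled by the authors with a factor the labels do not state. Every value was a whole multiple of 1 step per library, within 0.1 read. The authors' deposited columns also hold log2 group means, a log2 fold, and a p-value with its FDR per site. The submitters' processing notes name DiffBind 3.16 under R 4.4.1, MACS3 3.0.0a5, deepTools 3.5.1, BWA 0.7.17, SAMtools 1.9, Picard 3.2.0, FastQC and bedtools, and the builds GRCm39, mm39 and mm10, with no roles. The sources used here do not give how peaks of several libraries were merged into sites.

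Dense sites were found by position, with 6 or more other centres within 25 kb, and joined under 25 kb. All 62236 sites were fitted with limma 3.58.1 (R 4.3.3, trend and robust) on log2(value + 1), with Benjamini-Hochberg adjustment over all sites and a threshold of 0.05, as deposited and median-centred. Clusters were fitted likewise on their mean log2 value. The added 1 makes the fold changes of low sites too small. The fits were also run on simulated data with few changed sites and independent noise. That setting differs from these data, so it does not bear on the gap between deposited and median-centred calls.

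Gene starts from RefSeq GRCm38.p6 were placed on the sites' positions by an offset measured along each chromosome from sites and starts alone, with settings chosen after the offset was seen. Of 10054 starts held out of this, 38.3% met a site at the offset, against 6.10% without it and 5.53% with it reversed. RefSeq symbols matched 8055 of the 8233 gene names deposited.

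The text names the 6 clusters with the most sites, up to 10 higher and 10 lower with the smallest adjusted p on each scale, the 4 with the widest range, the site of smallest adjusted p in each, and up to 4 genes per list with the most dense sites. Other names are said to be chosen after their values were seen, as were the promoters shown. Some results under this rule are not reported here. The dense sites and the gene lists were chosen with earlier results of these data known. Alternatives were other scalings, pseudocounts, filters, crowding rules, thresholds, a replicate block and each library left out.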

Additional observations from a re-analysis of the deposited data

How the results depend on the processing

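Counts of dense sites on deposited values depended on the scaling of the libraries. The 394 higher and 7 lower sites (2.25% and 0.0400%) became 3370 and 2305 (19.3% and 13.2%) median-centred, 3125 and 2658 (17.9% and 15.2%) quantile normalised, and 762 and 62 (4.36% and 0.355%) by the FDR of the authors' deposited table. Leaving out each library in turn gave 59 to 3429 higher (0.337% to 19.6%) and 0 to 56 lower (0.0% to 0.320%), the lowest higher count without LPS replicate 2 and the highest without vehicle replicate 3. A limma adjusted p under 0.01 left 229 and 0 (1.31% and 0.0%). With 5 or more other centres 13 sites were lower, with 8 or more 176 were higher and 2 lower, and with 6 or more within 15 kb 100.0 were higher and 1 lower (0.0227%); these definitions hold other numbers of sites. A pseudocount of 5 and a filter on mean values under 20 kept the counts within 1.5 times.

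On median-centred values, leaving out each library gave 2630 to 3431 higher (15.0% to 19.6%) and 1575 to 2059 lower (9.01% to 11.8%). With 8 or more other centres the counts were 1580 and 913, with 6 or more within 15 kb 962 and 542, and at an adjusted p under 0.01 1287 were lower (7.36%). The median of dense minus other sites, LPS minus vehicle, was 0.04 to 0.10 without each library.

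On deposited values 4 clusters were higher and 0 lower, against 593 and 432 median-centred and 521 and 538 quantile normalised. With 6 or more within 15 kb 7 were higher, and with sites joined under 10 kb 24 were higher and 1 lower. Leaving out each library gave 0 to 314 higher and 0 to 2 lower. On median-centred values these ranges were 497 to 601 and 343 to 404, the counts 315 and 220 with 8 or more other centres, 271 and 193 within 15 kb, and 917 and 677 joined under 10 kb.

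Same-numbered libraries deviated together with correlations of 0.109, 0.0382 and 0.208, so the numbers are not taken as pairs, and not every library correlated best with its own number. With the replicate number as a block, 2187 dense sites were higher and 549 lower (12.5% and 3.14%) and 188 clusters higher and 33 lower on deposited values. On median-centred values the block gave 3852 and 2842 sites and 614 and 475 clusters, and it ended the call of 1 of 34 named clusters and of none of 88 named sites.

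Of the named results, 82 of 88 sites and 31 of 34 clusters called on median-centred values kept their call without each library, against 17 of 46 sites and none of 4 clusters on deposited values. Signs turned only for values that were not called in the setting concerned. The Ms4a1 site had a log2 fold of -0.39, and -0.67 to 0.12 without each library, positive without vehicle replicate 3. The Pdgfrb site had -0.16, and -0.49 to 0.18 without each library, positive without vehicle replicate 3 (0.18) or LPS replicate 1 (0.14). The median-centred Ngp site had -0.13, and -0.49 to 0.067, positive without vehicle replicate 1 (0.067) or 2 (0.027). The Psen2 and Itpkb cluster had 0.081, -0.024 quantile normalised, and -0.11 to 0.45 without each library, negative without vehicle replicate 1 (-0.11) or 2 (-0.10) or LPS replicate 3 (-0.071). Median-centred it had 0.020, and -0.014 to 0.061, negative without vehicle replicate 2. The Ccr1 and Ccr3 cluster had -0.14, and -0.34 to 0.20, positive without vehicle replicate 3 (0.20) or LPS replicate 1 (0.047). The cause of these changes was not tested. The median of 40 to 57 reads per dense site and the 3 libraries per group limit the precision of single sites.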
